A study of Erysimum cheiri and Matthiola incana and Raphanus sativus with 44 samples.

Results

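Petals of wallflower (Erysimum cheiri) form Y were set against petals of form B. The comparison used 4 of the series' 44 libraries, 2 of each form, chosen by the form codes in their titles, with 2 libraries of form O in the model to estimate the spread. Each library held poly(A) RNA of petals from half-open flowers of plants raised in a greenhouse, and no cultivar, genotype or treatment is given for any form. The colour labels give yellow for Y, orange for B and pink for O, which do not follow the letters of B and O. The organism label of the Y libraries is Eruca vesicaria subsp. sativa, against wallflower in their titles and their column names. Across 12870 loci the Y libraries correlated with the B and O libraries at Pearson's r of 0.80 to 0.89 on log2(FPKM + 1), and with the 2 Eruca petal libraries at 0.46 to 0.52. The B and O libraries correlated with the Eruca libraries at 0.46 to 0.52 as well. Y libraries 1 and 2 correlated with each other at 0.857. That is below Y library 1 with O library 1, at 0.885, and Y library 2 with O library 2, at 0.888. These coefficients describe libraries that share 1 reference and its loci, and form Y is taken as wallflower, as titled. FPKM (fragments per kilobase of transcript, scaled to the mapped fragments of the library) had been calculated on Arabidopsis thaliana loci, so each value is the part of the wallflower RNA that could be placed on the locus of another species. Symbols are those of the Arabidopsis loci, roles are those known in Arabidopsis unless stated, and near-identical loci may have exchanged reads.

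At the loci where reads could be recovered, the 2 libraries of B differed by about the sampling noise alone. No difference beyond it was found by the test there, and they are counted as 1 sample. Low FPKM values fell on steps worth 1 read, so reads could be recovered at some loci, with the steps taken from the other 4 wallflower libraries for each pair compared. Between Y libraries 1 and 2 the mean chi-square per locus was 3.46 over 1544 loci with at least 10 reads in the pair, and between O libraries 1 and 2 it was 4.63 over 1108 loci. Between B libraries 1 and 2 it was 1.02 over 759 loci (chi-square test, p = 0.312), where 1 is the value of counting error alone. In what follows the B level is the mean of both B libraries, both B values are still printed, and nothing is known of the spread between B plants. Where forms are said to overlap or not, the printed library values are compared. Such wording is no test, and the share of all loci without overlap was not counted. The series describes the pairs as biological replicates.

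Petal colour in the Brassicaceae rests mainly on anthocyanins, the red to blue flavonoids stored in the vacuole, and on carotenoids, the yellow to orange pigments of chromoplasts. Anthocyanins are built from phenylalanine through chalcone synthase, flavanone hydroxylation, dihydroflavonol reduction and sugar transfer, under MYB, bHLH and WD40 activators. Carotenoids come from the plastid isoprenoid pathway through phytoene and lycopene, and are kept in lipid bodies coated with fibrillins. Wallflower petals are known for holding both kinds of pigment, in proportions that differ between cultivars.

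The libraries differed in more than their form. The 22 heat shock genes summed to 106 and 7602 FPKM in Y libraries 1 and 2, against 35752 and 35321 FPKM in the B libraries, and to 129 and 26884 FPKM in the O libraries. Y library 1 and O library 1 were thus low, while Y library 2, O library 2 and B were high, and in Y library 1 16 of the 22 genes were listed at 0. Loci of the mitochondrial genome held 10.4% of the FPKM of Y library 1 and at most 0.162% in each of the other 5 libraries. Relative to B library 1, the depth read from the steps was 1.29 and 1.43 in the Y libraries, 1.24 in B library 2, and 1.45 and 1.16 in the O libraries. A read at a typical locus with a step was worth 0.610 to 0.883 FPKM, so values of a few FPKM rest on a few reads. The 10 genes used in every cell were above 0 in all 6 libraries.

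**Figure D1:**
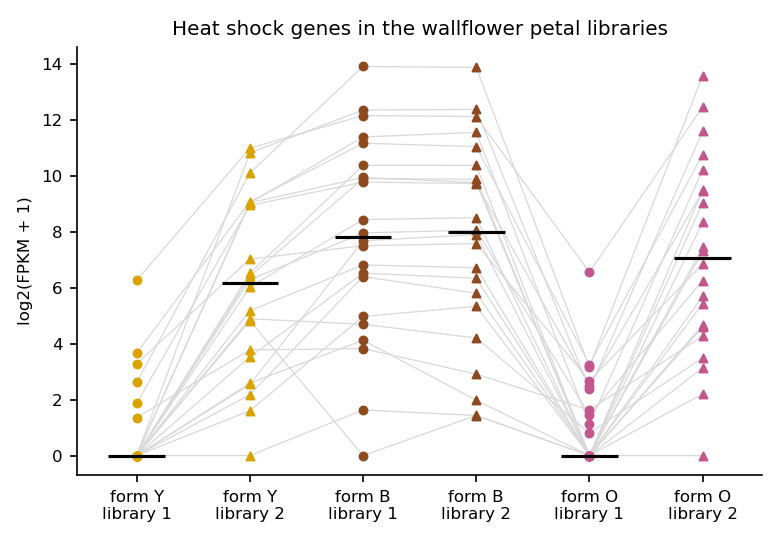
Heat shock genes in each library as log2(FPKM + 1), with libraries along the horizontal axis. Points are the 22 genes, grey lines join 1 gene and black bars are medians. Y library 1 and O library 1 lie near 0, and Y library 2, both B libraries and O library 2 lie high.

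In limma on log2(FPKM + 1) with B counted once, 0 of 12870 loci whose mean reached 1 FPKM in Y or B passed an adjusted p of 0.05 (0%), 1025 had an unadjusted p under 0.05, and the smallest adjusted p was 0.158. Entered as 2 libraries, B1 and B2 gave 30 calls, 13 higher and 17 lower in Y, or 0.233% of the loci. Because the spread in B is that of counting error where reads were recovered, those calls are given as values and not as changes. No gene is therefore said to have risen or fallen. The lists are instead described by the members for which both Y libraries lay at least 2-fold from B on the log2(FPKM + 1) scale. Of all tested loci, 1074 (8.34%) were at least 2-fold higher and 1175 (9.13%) at least 2-fold lower in both Y libraries, and 206 (1.6%) and 272 (2.11%) were so at 4-fold. Over the same loci the counts at 2-fold were 2294 higher and 2449 lower with Y library 1 alone and 2056 higher and 2218 lower with Y library 2 alone. The median difference over all tested loci was -0.03. Of the 425 listed loci tested, 49 were at least 2-fold higher and 68 at least 2-fold lower in both Y libraries. Counts within a list are to be read beside these shares.

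**Figure D2:**
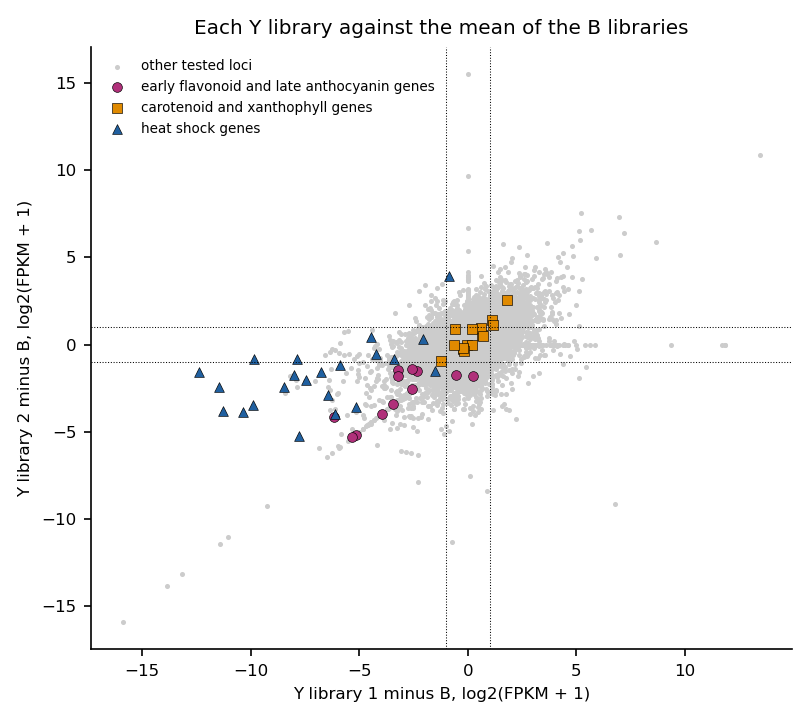
Difference in log2(FPKM + 1) of Y library 1 from B (horizontal axis) and of Y library 2 from B (vertical axis), 1 point per tested locus. Dotted lines mark 2-fold, the early flavonoid and late anthocyanin genes lie mostly at the lower left, and heat shock genes are spread far to the left by Y library 1.

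Of 10 genes in the late anthocyanin list, the late steps towards anthocyanin, 7 passed the filter. Of these, 6 were between 0 and 3.07 FPKM in Y petals and at least 2-fold lower in both Y libraries than in B. The share of all tested loci lower in both was 9.13%. With Y library 1 alone 0 were higher and 6 lower, and with Y library 2 alone 0 were higher and 7 lower. The median difference of the tested genes was -3.98 in Y library 1 and -3.98 in Y library 2. DFR, the dihydroflavonol reductase that commits flavonoids to anthocyanin, was listed at 0 and 0 FPKM in the Y libraries, against 13.4 and 16.1 FPKM in the B libraries. LDOX, the dioxygenase that makes the coloured anthocyanidin, had 0.951 and 0.855 FPKM in Y and 62.9 and 72.5 FPKM in B. Its Y mean was 75.0-fold lower, a log2 difference of -5.17 ± 0.91 (SE) with an adjusted p of 0.30 in limma. Both Y values of LDOX thus lay far below both B values and below the 216 and 60.3 FPKM of the O libraries, and no Y value of DFR was above 0.

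The genes that add sugars and acyl groups differed among themselves. UGT79B1, which adds xylose to the glucose of an anthocyanin, was listed at 0 and 0 FPKM in Y and had 37.9 and 40.2 FPKM in B and 123 and 44.6 FPKM in O. Its adjusted p in limma was 0.24 with B counted once and 0.037 with B1 and B2 as 2 libraries. UGT75C1, the anthocyanin 5-O-glucosyltransferase, was listed at 0 and 0 FPKM in Y, against 5.33 and 14.3 FPKM in B. The acyltransferase gene 3AT1 was listed at 0 and 0 FPKM in Y, against 5.87 and 3.94 FPKM in B, where the B values are 6 and 5 recovered reads. The other 3 acyl transfer genes did not pass the filter, and 5MAT had 0 and 0.781 FPKM in Y and 0 and 0 FPKM in B, SCPL10 had 0 and 1.38 FPKM in Y and 0 and 0.793 FPKM in B, and 3AT2 had 0 and 0 FPKM in Y and 0 and 0.667 FPKM in B. UGT78D2, a 3-O-glucosyltransferase shared with flavonols, had 6.01 and 0.680 FPKM in Y and 5.84 and 3.92 FPKM in B, and there the forms overlapped. TT19, the glutathione transferase that carries anthocyanin to the vacuole, had 0 and 3.07 FPKM in Y, 65.4 and 74.8 FPKM in B and 1107 and 112 FPKM in O. It was the late gene with the widest gap between the O libraries.

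The early flavonoid genes, shared with flavonols, were present in Y at lower levels than in B. Of the 5 genes 4 were at least 2-fold lower in both Y libraries, against 9.13% of all tested loci. Their median difference was -2.58 in Y library 1 and -1.54 in Y library 2, taken over the 5 genes. With Y library 1 alone 0 were higher and 4 lower, and with Y library 2 alone 0 were higher and 5 lower. CHS, chalcone synthase, the entry enzyme, had 108 and 187 FPKM in Y and 565 and 528 FPKM in B, 3.70-fold lower in the Y mean (log2 difference -1.93 ± 1.05, adjusted p 0.74 in limma). CHIL, which helps chalcone synthase make the right product, had 63.9 and 216 FPKM in Y and 609 and 593 FPKM in B. F3H, the flavanone hydroxylase, had 14.6 and 34.2 FPKM in Y and 94.8 and 89.8 FPKM in B. In each of these genes Y library 1 was the lower Y library and both O libraries stood above B, with 3556 and 886 FPKM of CHS. F3PRIMEH, the hydroxylase of the B ring that leads to cyanidin, had 3.64 and 11.6 FPKM in Y and 38.5 and 46.2 FPKM in B, a 5.56-fold lower Y mean. CHI, chalcone isomerase, overlapped between the forms, with 6.87 and 2.44 FPKM in Y and 3.55 and 17.2 FPKM in B.

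The flavonol branch held genes in both orders. OMT1, a methyltransferase shared with lignin, had 390 and 206 FPKM in Y and 773 and 745 FPKM in B, so both Y values were the lower ones. FLS1, flavonol synthase, which competes with DFR for the same substrates, had 13.3 and 9.59 FPKM in Y and 4.59 and 5.55 FPKM in B, so both Y values were the higher ones. MYB12, an activator of flavonol genes, had 1.59 and 2.15 FPKM in Y and was listed at 0 and 0 FPKM in B. The Y values of MYB12 are 2 and 3 recovered reads. RHM1, which makes the rhamnose donor of flavonol glycosides, had 139 and 101.2 FPKM in Y and 45.9 and 31.9 FPKM in B, a 3.09-fold higher Y mean (log2 difference 1.58 ± 0.33, adjusted p 0.41 in limma). Over the list of 9 genes, 7 were tested and 2 were at least 2-fold higher in both Y libraries. The 1 lower gene was the glycosyltransferase gene UGT78D3, listed at 0 in Y. It had 1.02 and 1.65 FPKM in B, which are 1 and 2 recovered reads. The counts were 3 higher and 1 lower with Y library 1 alone and 2 higher and 3 lower with Y library 2 alone. Among all tested loci 8.34% were higher and 9.13% lower in both Y libraries.

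Upstream of flavonoids 8 of 9 genes were tested, with 1 at least 2-fold higher and 1 lower in both Y libraries. Over all tested loci those shares were 8.34% and 9.13%. The counts were 2 higher and 1 lower with Y library 1 alone and 1 higher and 4 lower with Y library 2 alone. PAL1, the main phenylalanine ammonia-lyase, had 2388 and 724 FPKM in Y and 1558 and 1429 FPKM in B, with the Y values on either side of B. The PAL gene PAL4 had 572 and 167 FPKM in Y and 746 and 746 FPKM in B. Of the ligase genes that activate coumarate, 4CL1, tied mainly to lignin, had 1.08 and 2.28 FPKM in Y and 11.4 and 15.73 FPKM in B. Its relative 4CL3, tied to flavonoids, had 20.3 and 13.7 FPKM in Y and 2.998 and 4.22 FPKM in B. The forms did not overlap in 4CL1 or 4CL3, and the order was opposite in these 2 genes. They overlapped in the other ligase genes, 4CL2 and 4CL5. 4CL2 had 3.37 and 0.512 FPKM in Y and 1.46 and 2.34 FPKM in B. 4CL5 had 2.26 and 0 FPKM in Y and 0 and 1.18 FPKM in B.

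Among the regulators, the MYB activators of anthocyanin were low in Y and B. MYB114 was listed at 0 and 0 FPKM in Y, against 12.1 and 9.85 FPKM in B and 28.1 and 5.04 FPKM in O. PAP2 was listed at 0 and 0 FPKM in Y, against 3.30 and 1.33 FPKM in B, which are 2 and 1 recovered reads. PAP1 had 2.81 and 0 FPKM in Y and 5.45 and 2.93 FPKM in B, where the Y value above 0 lies just below the lower B value. PAP2 and MYB114 are neighbours in Arabidopsis and all 3 genes are similar in sequence, so which of them a wallflower read was placed on is uncertain. TT8, the bHLH partner of the MYB activators, was listed at 0 in both forms, and at 5.98 and 0 FPKM in O. The WD40 gene TTG1 had 3.22 and 5.09 FPKM in Y and 1.04 and 3.36 FPKM in B, overlapping. Of the 9 repressors 7 were tested, 1 at least 2-fold higher and 2 lower in both Y libraries. Over all tested loci those shares were 8.34% and 9.13%. The higher one was MYB4, which represses phenylpropanoid genes, with 114 and 98.3 FPKM in Y and 29.7 and 34.4 FPKM in B. Its Y mean was 3.31-fold higher with no overlap, and the O libraries had 131 and 74.4 FPKM. MYBL2 was listed at 0 and 0 FPKM in Y, against 1.65 and 2.66 FPKM in B, values of a read or so.

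Of the vacuolar transport genes 11 of 12 were tested, and 1 was at least 2-fold lower in both Y libraries, against 9.13% of all tested loci. It was ABCC2, a transporter that moves anthocyanin glucosides into the vacuole, with 40.8 and 25.9 FPKM in Y and 90.4 and 89.0 FPKM in B. ABCC2 had 529 and 78.8 FPKM in the O libraries, and its adjusted p in limma was 0.82. The counts were 1 higher and 2 lower with Y library 1 alone and 0 higher and 1 lower with Y library 2 alone. The proton pump gene AVP1 had 219 and 237 FPKM in Y and 181 and 169.6 FPKM in B. TT12, the transporter of flavonoid precursors, did not pass the filter on low values. DFR, UGT79B1, UGT75C1 and 3AT1 were at 0 in both Y libraries. The heat shock genes summed to 106 and 7602 FPKM in those libraries, against 35752 and 35321 FPKM in B, so neither Y library matched B in that state. In O, library 1 had its heat shock genes low and each of these 4 genes above O library 2. The part of the heat shock state in these genes was not tested.

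**Figure D3:**
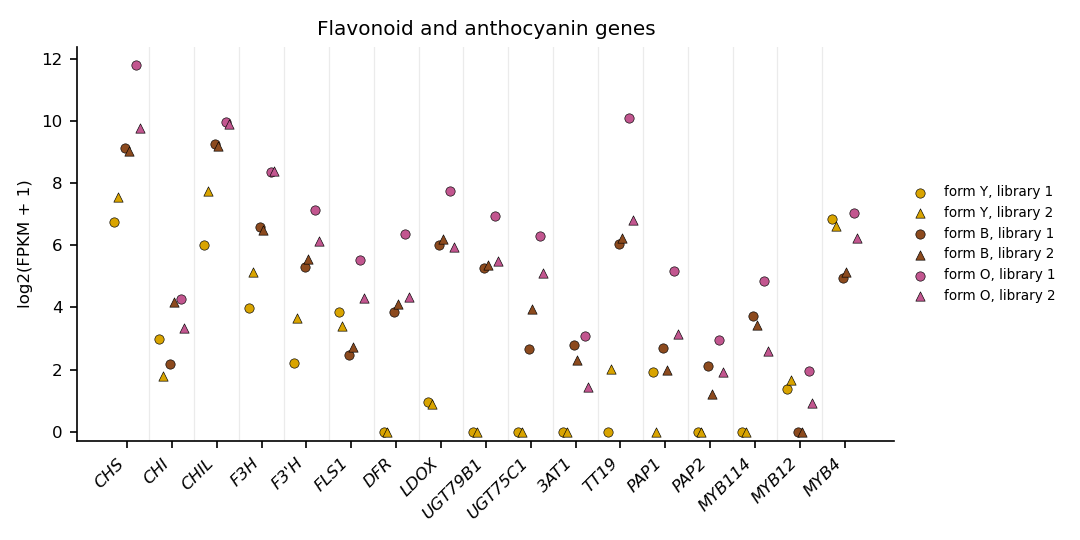
Flavonoid and anthocyanin genes as log2(FPKM + 1) in each library, Y left, B in the middle and O right for each gene. From DFR to TT19 the Y points lie at or near 0, while CHS, CHIL and F3H are lower in Y than in B but far above 0.

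The carotenoid genes did not share 1 direction. Of the 8 carotenoid synthesis genes, all tested, 2 were at least 2-fold higher in both Y libraries and none was lower. Over all tested loci the shares were 8.34% higher and 9.13% lower. The counts were 2 higher and 0 lower with either Y library alone. The median difference was 0.09 in Y library 1 and -0.03 in Y library 2. The 2 genes stand at the entry and at the branch of the pathway. PSY, phytoene synthase, the rate-setting entry enzyme, had 565 and 692 FPKM in Y and 253 and 272 FPKM in B, a 2.39-fold higher Y mean (log2 difference 1.247 ± 0.52, adjusted p 0.68 in limma), and 269 and 477 FPKM in O. LCYE, the epsilon cyclase that directs lycopene towards lutein, had 501 and 839.6 FPKM in Y and 137 and 151 FPKM in B, a 4.66-fold higher Y mean (log2 difference 2.17 ± 0.56, adjusted p 0.54). LCYB, the beta cyclase of the other branch, had 72.9 and 65.6 FPKM in Y and 88.6 and 79.2 FPKM in B, so both Y values were the lower ones by a small margin. The desaturase genes between them were close. PDS had 1339 and 1315 FPKM in Y and 1369.5 and 1346 FPKM in B, with a log2 difference of -0.03 ± 0.53, and ZDS had 143 and 123 FPKM in Y and 127 and 123 FPKM in B.

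In the xanthophyll list of 7 genes, 1 was at least 2-fold higher in both Y libraries and 0 lower, against 1 higher and 1 lower with Y library 1 alone and 1 higher and 0 lower with Y library 2 alone. The shares over all tested loci were 8.34% higher and 9.13% lower in both Y libraries. BCH1, a beta-ring hydroxylase, had 82.0 and 77.2 FPKM in Y and 38.3 and 33.0 FPKM in B, and its relative BCH2 had 96.2 and 122 FPKM in Y and 58.8 and 67.2 FPKM in B. Both hydroxylases were higher in each Y library than in either B library, BCH2 by less than 2-fold. ZEP, the epoxidase that turns zeaxanthin into violaxanthin, was on the other side, with 377 and 474 FPKM in Y and 861 and 929.7 FPKM in B, a 2.105-fold lower Y mean (log2 difference -1.08 ± 0.43, adjusted p 0.67 in limma). Its O values of 384 and 536 FPKM were closer to those of Y. LUT5, the hydroxylase of the lutein branch, had 75.3 and 207 FPKM in Y and 104 and 123 FPKM in B, and LUT1, which completes lutein, had 50.7 and 82.0 FPKM in Y and 46.9 and 42.0 FPKM in B.

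Before phytoene, the plastid isoprenoid pathway had 9 of 10 genes tested, with 2 at least 2-fold higher in both Y libraries and 0 lower, and a median difference of 0.68 in Y library 1 and 1.39 in Y library 2. The counts were 2 higher and 1 lower with Y library 1 alone and 6 higher and 0 lower with Y library 2 alone. Among all tested loci 8.34% were higher and 9.13% lower in both Y libraries. DXS, the entry enzyme with most control over the flux, had 146 and 234 FPKM in Y and 51.8 and 62.8 FPKM in B, a 3.32-fold higher Y mean (log2 difference 1.68 ± 0.41, adjusted p 0.50 in limma). MCT, the third enzyme, had 15.3 and 38.1 FPKM in Y and 5.64 and 2.28 FPKM in B. At the end of the pathway HDR, the last reductase, had 711 and 882 FPKM in Y and 566 and 547 FPKM in B, and the isomerase gene IPI2 had 455 and 414 FPKM in Y and 293 and 246 FPKM in B. HDS, the step before HDR, was lower in both Y libraries, with 216 and 442 FPKM in Y and 632 and 643 FPKM in B. HDS also differed between the O libraries, with 205 and 793 FPKM in the one low and the one high in heat shock genes, and the part of that state in the difference was not tested.

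Storage and cleavage genes differed in both directions. FBN4, a plastoglobule fibrillin, had 11.9 and 7.73 FPKM in Y and 125 and 120.3 FPKM in B, a 12.6-fold lower Y mean (log2 difference -3.55 ± 0.99, adjusted p 0.56 in limma), with 8.62 and 35.9 FPKM in O. Another fibrillin gene, FBN1b, stood the other way, with 820.3 and 786 FPKM in Y and 293 and 270.01 FPKM in B, and its close relative FBN1a had 1098 and 2153 FPKM in Y and 2559.96 and 2345 FPKM in B. FBN1a and FBN1b are similar in sequence, so their split is uncertain. OR, which holds phytoene synthase and promotes chromoplasts, was level, with 51.0 and 49.4 FPKM in Y and 51.8 and 58.5 FPKM in B. CCD1, a carotenoid cleavage dioxygenase, had 637 and 535 FPKM in Y and 735 and 731 FPKM in B. CCD4, the cleavage enzyme known to whiten chrysanthemum petals, was near 0, with 0.530 and 0 FPKM in Y and 2.06 and 1.104 FPKM in B. NCED3, the dioxygenase that starts abscisic acid synthesis from epoxy-carotenoids and a gene of dehydration, had 2.35 and 9.42 FPKM in Y and 30.4 and 33.7 FPKM in B, so the forms did not overlap. NCED5, of the same step, stood the other way, with 3.80 and 1.48 FPKM in Y and 0 and 0 FPKM in B. Of 9 cleavage genes 4 were tested, with 1 higher and 1 lower in both Y libraries. Over all tested loci those shares were 8.34% and 9.13%. The cleavage counts were 1 higher and 1 lower with Y library 1 alone and 1 higher and 2 lower with Y library 2 alone.

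**Figure D4:**
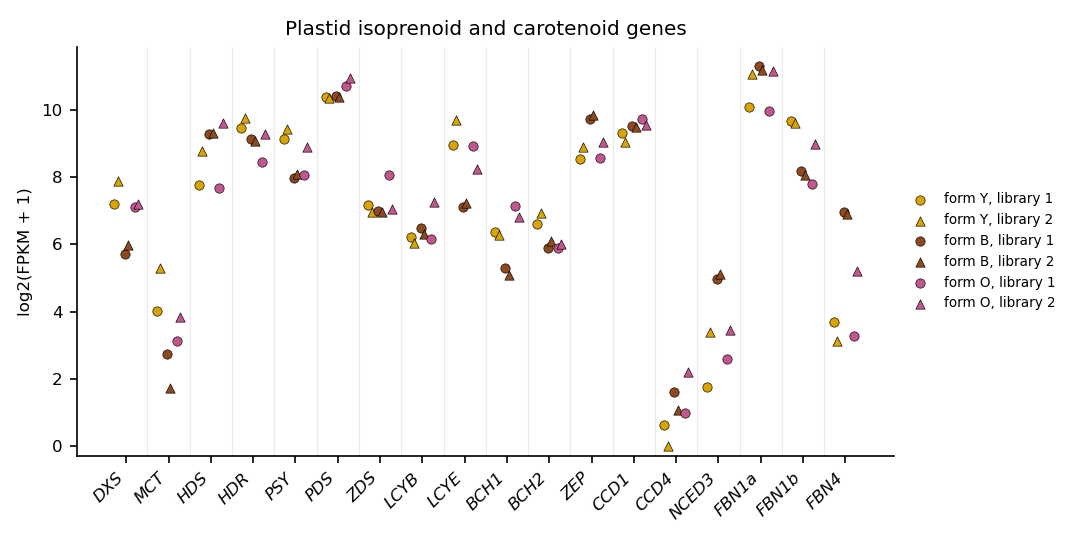
Plastid isoprenoid and carotenoid genes as log2(FPKM + 1) in each library, Y left, B in the middle and O right for each gene. Y lies above B for DXS, MCT, PSY, LCYE, BCH1 and FBN1b, below it for ZEP, NCED3 and FBN4, and level with it for PDS and ZDS.

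Genes of the petal surface and wall held members that were well above B in Y. In the cutin and nanoridge list, 9 of 17 genes were tested, 4 were at least 2-fold higher and 1 lower, with a median difference of 0.96 in Y library 1 and 1.65 in Y library 2. The counts were 4 higher and 1 lower with Y library 1 alone and 6 higher and 2 lower with Y library 2 alone. Among all tested loci 8.34% were higher and 9.13% lower in both Y libraries. ABCG11, a transporter of cuticle lipids, had 128 and 123 FPKM in Y and 38.7 and 38.0 FPKM in B. CYP77A6, a cutin hydroxylase needed for the nanoridges of Arabidopsis petals, had 12.3 and 14.1 FPKM in Y and 0 and 2.69 FPKM in B. CYP86A4, another cutin hydroxylase, had 5.05 and 6.45 FPKM in Y and 0 and 0.526 FPKM in B, and was listed at 0 in both O libraries. MYB16, which drives conical petal cells, had 10.04 and 1.64 FPKM in Y and was listed at 0 in B and O. SHN1, an activator of cuticle genes, was lower, with 4.73 and 0 FPKM in Y and 16.3 and 9.87 FPKM in B, and GPAT6, the abundant acyltransferase of petal cutin, had 1967 and 699 FPKM in Y and 1755 and 1689.8 FPKM in B, on either side.

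In the wax list 10 of 14 genes were tested and 2 passed, both higher in Y, against 3 higher and 1 lower with Y library 1 alone and 3 higher and 3 lower with Y library 2 alone. Among all tested loci 8.34% were higher in both Y libraries. CER3, which acts with CER1 in alkane formation, had 238 and 185 FPKM in Y and 52.4 and 61.0 FPKM in B, a 3.73-fold higher Y mean (log2 difference 1.87 ± 0.34, adjusted p 0.33 in limma). MYB96, an activator of wax genes, had 5.06 and 12.4 FPKM in Y and was listed at 0 in B. CER1 itself had 542 and 178 FPKM in Y and 113 and 98.5 FPKM in B, with its lower Y value less than 2-fold above B. Of 8 lipid transfer protein genes 5 were tested, and 2 of them were at least 2-fold higher in both Y libraries and 0 lower, against 5 higher and 0 lower with Y library 1 alone and 2 higher and 0 lower with Y library 2 alone. LTP2 had 455 and 477 FPKM in Y and 225 and 196 FPKM in B.

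Among the expansins, which loosen the wall during growth, 10 of 11 genes were tested, 3 were at least 2-fold higher in both Y libraries and 0 lower, against 4 higher and 1 lower with Y library 1 alone and 6 higher and 1 lower with Y library 2 alone. EXPA6 had 261 and 92.4 FPKM in Y and 6.52 and 5.25 FPKM in B, a 30.0-fold higher Y mean (log2 difference 4.51 ± 0.89, adjusted p 0.38 in limma), with 129 and 59.8 FPKM in O. EXPA11 had 45.7 and 811 FPKM in Y and 13.8 and 14.4 FPKM in B, where the Y libraries differed from each other by more than Y library 1 did from B. EXPA10 lay the other way, with 384 and 313 FPKM in Y and 788 and 718 FPKM in B. Of the xyloglucan endotransglucosylase genes 11 of 18 were tested, 4 were higher and 0 lower, against 7 higher and 0 lower with Y library 1 alone and 4 higher and 3 lower with Y library 2 alone. XTH23 had 128 and 203 FPKM in Y and 64.6 and 53.3 FPKM in B. XTH8 had 31.1 and 3.84 FPKM in Y and was listed at 0 in B. For both families, the shares over all tested loci were 8.34% higher and 9.13% lower in both Y libraries.

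A pair of genes for small proteins had the smallest adjusted p of the listed genes, together with 3 defensin genes seen in 1 B library each. GASA6, a gibberellin-induced peptide of growing tissue, had 1045 and 989 FPKM in Y and 40.4 and 46.7 FPKM in B, a 23.4-fold higher Y mean (log2 difference 4.51 ± 0.33). Its adjusted p in limma was 0.23 with B counted once and 0.013 with B1 and B2 as 2 libraries. The O libraries lay between the other forms, with 488 and 541 FPKM. RCI2B, a small membrane protein known from cold and salt responses, had 146 and 83.7 FPKM in Y, was listed at 0 and 0 FPKM in B and had 31.6 and 39.7 FPKM in O, with an adjusted p of 0.23 with B counted once and 0.013 with B1 and B2 as 2 libraries. The O libraries stood apart in heat shock genes, and the part of that state in the values of both genes was not tested. GASA1, another member of the GASA family, had 47.5 and 0 FPKM in Y and 239 and 229.96 FPKM in B, with a wide gap within O at 786 and 115 FPKM.

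SID2, the isochorismate synthase that feeds salicylic acid, had 582 and 157 FPKM in Y and 4.15 and 2.78 FPKM in B, a 107-fold higher Y mean (log2 difference 6.09 ± 1.254, adjusted p 0.40 in limma), and 687 and 188 FPKM in O. PR5 and PR2, both defence genes known to respond to salicylic acid, were read in B and not in Y. PR5 was listed at 0 and 0 FPKM in Y, against 4.98 and 10.7 FPKM in B, and PR2 was listed at 0 and 0 FPKM in Y, against 1.23 and 2.97 FPKM in B. In all, 14 of 22 defence genes were tested, 1 was higher and 7 lower in both Y libraries, against 1 higher and 10 lower with Y library 1 alone and 3 higher and 7 lower with Y library 2 alone. The 7 include 4 defensin genes, PDF1.1, PDF1.2A, PDF1.2C and PDF1.3. Each was listed at 0 in Y and in 1 of the B libraries, with at most 5.83 FPKM in the other. The shares over all tested loci were 8.34% higher and 9.13% lower in both Y libraries.

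In the jasmonate list, 18 of 26 genes were tested, 5 were at least 2-fold higher in both Y libraries and 0 lower, against 8 higher and 3 lower with Y library 1 alone and 5 higher and 2 lower with Y library 2 alone. OPR3, the reductase that makes jasmonate and is needed for stamen maturation, had 32.8 and 50.4 FPKM in Y and 13.7 and 10.1 FPKM in B. MYB24, a jasmonate-regulated petal and stamen factor, had 178 and 78.9 FPKM in Y and 34.3 and 33.0 FPKM in B, and the abundant MYB21 had 2210.3 and 1739 FPKM in Y and 1321 and 1259.8 FPKM in B. JAZ2, a repressor that jasmonate induces, had 4.61 and 2.49 FPKM in Y and was listed at 0 in B. MYB24 was also 204 FPKM in O library 1 against 37.8 FPKM in O library 2, and the part of the heat shock state in it was not tested. The clock genes held 3 higher and 1 lower of 15 tested, against 5 higher and 1 lower with Y library 1 alone and 3 higher and 3 lower with Y library 2 alone. For the jasmonate and clock lists alike, the shares over all tested loci were 8.34% higher and 9.13% lower in both Y libraries. LHY, a morning gene, had 815 and 301 FPKM in Y and 121 and 121 FPKM in B, while its partner CCA1 had 170.1 and 123 FPKM in Y and 289.8 and 338 FPKM in B, in the opposite order. GI, an evening gene, had 76.3 and 35.3 FPKM in Y and 16.6 and 11.8 FPKM in B. In O libraries 1 and 2, LHY had 539 and 121 FPKM, CCA1 112 and 189 FPKM and GI 119 and 19.4 FPKM. The hour of collection is not given, and neither its part nor that of the heat shock state was tested.

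Of the 22 heat shock genes 15 were at least 2-fold lower in both Y libraries, against 9.13% of all tested loci. With Y library 1 alone 21 were lower, and with Y library 2 alone 15. The median difference was -7.10 in Y library 1 and -1.66 in Y library 2, so the distance from B was much the wider in Y library 1. HSP101, the chaperone that dissolves aggregates, had 0 and 1808 FPKM in Y and 5243 and 5320.4 FPKM in B, and APX2, a peroxidase gene induced by heat and strong light, had 5.12 and 1099.8 FPKM in Y and 15439 and 15063 FPKM in B. HSP21, the small chaperone of plastids, had 0 and 4.83 FPKM in Y and 204 and 238 FPKM in B. The O libraries held 4.19 and 3107 FPKM of HSP101, so the gap within a form was as wide as that between forms, and adjusted p in limma was 0.82 for HSP101. Whether the form or another difference between the sampled flowers goes with these values was not tested.

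Other groups also differed between the libraries low and high in heat shock genes. Of 17 aquaporin genes, all tested, 7 were at least 2-fold lower in both Y libraries and 1 higher, against 1 higher and 11 lower with Y library 1 alone and 2 higher and 8 lower with Y library 2 alone, with a median difference of -1.32 in Y library 1 and -0.85 in Y library 2 and of 2.35 for O library 2 over O library 1. PIP1;5 had 447 and 378 FPKM in Y and 3213 and 2910.4 FPKM in B, and PIP2;3 had 35.8 and 447 FPKM in Y, 1281 and 1193 FPKM in B and 29.1 and 2802 FPKM in O. PIP2;2 and PIP2;3 are near-identical, so their split is uncertain. PIP2;8 was the exception, with 37.4 and 63.4 FPKM in Y and 9.42 and 4.34 FPKM in B. For the aquaporin counts, the shares over all tested loci were 8.34% higher and 9.13% lower in both Y libraries. RCA, Rubisco activase, had 220.1 and 982 FPKM in Y and 3791 and 4002 FPKM in B, and 532 and 5475 FPKM in O. The 30 photosystem and antenna genes summed to 2585 and 8773 FPKM in Y, 6022 and 5411 FPKM in B and 3861 and 18594 FPKM in O, so the Y libraries lay on either side of B, and 5 of the 29 tested genes were 2-fold lower in one Y library and 2-fold higher in the other. Among all loci, 35.0% of those lower in both Y libraries were also at least 2-fold higher in O library 2 than in O library 1. That share was 22.0% of the loci higher in both Y libraries and 19.1% of all tested loci. At least 2-fold higher in O library 1 were 13.0% of the lower loci, 25.05% of the higher loci and 16.5% of all tested loci. The part of the heat shock state in these results was not tested.

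**Figure D5:**
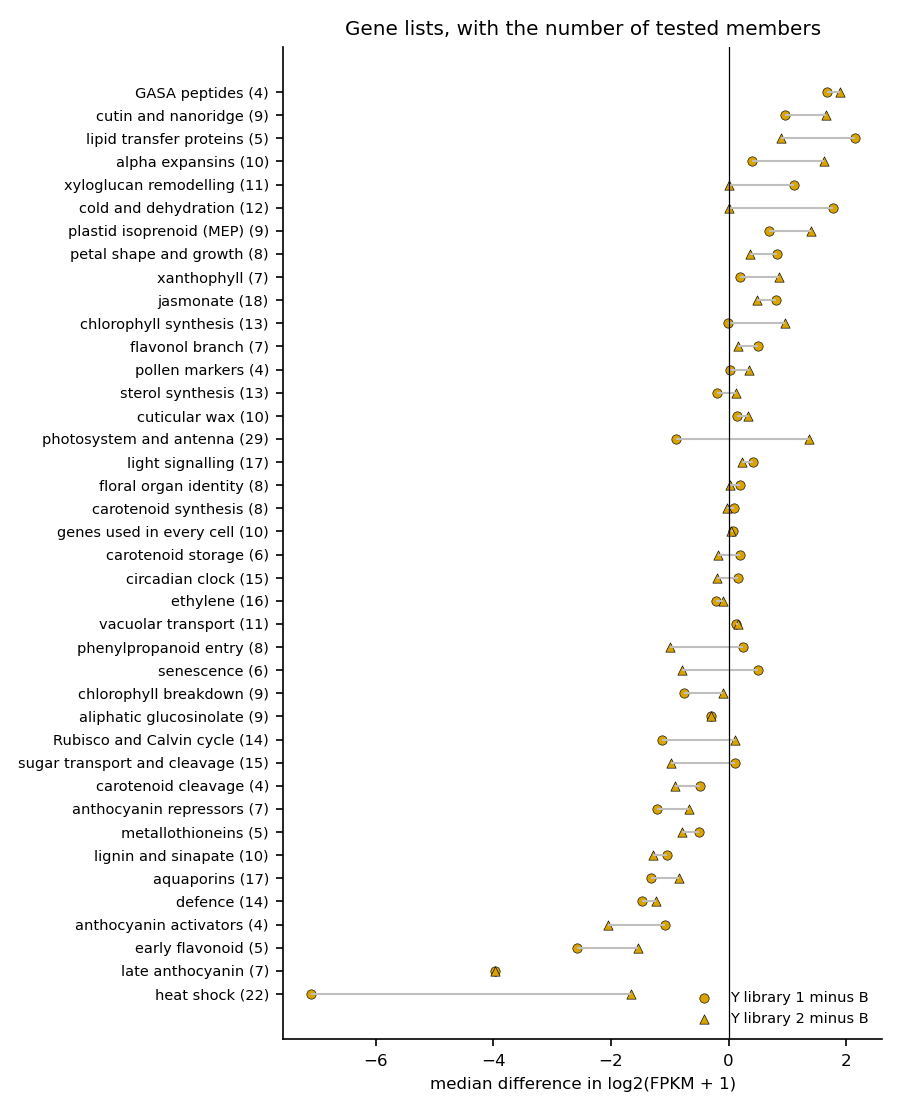
Median difference from B in log2(FPKM + 1) for each gene list with at least 4 tested members, whose number stands in brackets. Circles are Y library 1, triangles Y library 2. The late anthocyanin genes lie near -4 in both, while heat shock and photosystem genes differ widely between the Y libraries.

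The petal label was checked against marker genes. AP3 and PI, the MADS genes of petal identity, had 3231 and 3979 FPKM and 1413 and 1714 FPKM in Y, against 3141 and 3336 FPKM and 1446 and 1594 FPKM in B, with log2 differences of 0.15 ± 0.78 and 0.03 ± 0.62. SEP3, their partner, had 1106 and 1369 FPKM in Y and 1925 and 1808 FPKM in B. The 7 carpel and ovule markers summed to at most 2.07 FPKM in any library, and 5 to 7 of them were at 0. The 5 pollen markers summed to 31.3 and 58.4 FPKM in Y, 31.5 and 29.7 FPKM in B and 14.8 and 20.8 FPKM in O, with VGD1 at 17.7 and 41.3 FPKM in Y and 14.6 and 16.4 FPKM in B. The 11 tapetum markers summed to 72.1 and 146 FPKM in Y and 65.2 and 55.5 FPKM in B, of which TKPR1 held 62.2 and 109.7 FPKM in Y and 53.2 and 44.0 FPKM in B, while 8 of the 11, A9, MS1 and AMS among them, were at 0 in every library. DYT1, an early regulator of the tapetum, had 0 and 31.0 FPKM in Y and 6.18 and 5.01 FPKM in B and stood out in Y library 2, and LAP6 had 9.86 and 5.65 FPKM in Y and 5.80 and 6.54 FPKM in B. Fewer cells of a type and less RNA per cell cannot be told apart in such samples.

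Outside the lists the files give locus identifiers alone. Of the 30 loci called with B1 and B2 as 2 libraries, the largest positive differences were at ATCG00080, a plastid locus with 11342 and 1837 FPKM in Y, 0 in B and 0 in O, and AT5G04790, with 123 and 160.2 FPKM in Y and 0 in B and O. The largest negative differences were at AT3G28530, listed at 0 in Y and O and at 66901 and 54708 FPKM in B, and AT1G02920, listed at 0 in Y with 76.9 and 98.2 FPKM in B and 121 and 35.2 FPKM in O. A short locus can reach a high FPKM on few reads, and the reads behind these values are unknown.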

How the data were processed

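Petal poly(A) RNA was measured by directional RNA-seq, per the labels' protocols. The deposited values are FPKM per Arabidopsis locus, calculated by the authors with Arabidopsis as reference, and the submitters' processing notes name TopHat, Cufflinks, Cuffdiff and DESeq without versions, roles or settings. Counts were not used here, so depth is known only from steps of low values. The table holds 34133 loci, of which 1973 carry a transcript suffix. Groups follow the titles, and 2 columns that match no title were not used.

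The log2(FPKM + 1) values of loci whose mean reached 1 FPKM in Y or B were fitted with limma 3.58.1 (R 4.3.3) over 5 samples, Y1, Y2, the mean of B1 and B2, O1 and O2, with empirical Bayes that follows intensity, and p-values of all 12870 loci were adjusted by Benjamini-Hochberg. The planned model had B1 and B2 apart. They were joined after the reads of the pair were compared, which changes the number of samples, and the planned model stands as an alternative. With 2 residual degrees of freedom the spread rests on Y and O. Adding 1 pulls differences of low loci towards 0. A difference at a form listed at 0 is given without a fold.

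Steps were sought at loci above 0 in at least 3 libraries from values of up to 12 reads, and were found at 5124 loci, which hold 1.41% to 2.39% of the FPKM of a library. Between 88.7% and 92.5% of low values of a compared pair lay within 0.1 of a whole read.

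The members and the 45 gene lists (577 loci, 425 tested) were chosen with earlier results of these data known, so the lists have no test. Genes always named were the main flavonoid, anthocyanin and carotenoid genes, AP3 and PI, then called members, then the member with the largest difference in a list without calls. As no gene was called, members 2-fold from B in both Y libraries were added, a rule chosen after their values were seen, as were some others named for their role. No reference sequence was used. The scripts were tested on simulated data. Alternatives were other pseudocounts, filters, quantile scaling, a replicate block, no trend, fewer forms, each library left out, and voom on recovered reads.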

Additional observations from a re-analysis of the deposited data

How the results depend on the processing

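Of the alternatives to limma with B counted once, 0 loci were called with no filter on low FPKM, with quantile scaling, with only Y and B in the model and by voom on the recovered reads. With a pseudocount of 0.1 there were 191 calls, 4 higher and 187 lower in Y, and 3 calls each, all lower, with a pseudocount of 10, a mean of at least 5 FPKM and no variance trend. B1 and B2 as 2 libraries gave 30. Leaving out each library in turn gave 0 to 527, with 502 without Y library 1 and 527 without Y library 2, when Y and B are single samples assumed to vary like O. Of listed genes 0 were called, against 8 with a pseudocount of 0.1, 3 with B1 and B2 as 2 libraries and 0 to 17 with a library left out.

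The replicate numbers of the titles do not pair the samples by any label, and B counted once has no number. Y and O libraries of 1 number deviated together (r = 0.40 across loci), B with neither. A replicate block called 0 loci, with 1597 at an unadjusted p under 0.05.

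The loci 2-fold from B in both Y libraries numbered 224 higher and 350 lower with a pseudocount of 10, and 721 lower with a mean of at least 5 FPKM. Leaving out a Y or B library in turn, with the filter on low FPKM applied anew, gave 1259 to 2527 higher and 1253 to 2449 lower. Without a Y library a single Y value has to pass.

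Of 122 named genes 14 changed sign under at least 1 alternative. With quantile scaling the log2 difference was 0.083 for PAL1, 0.26 for PDS and 0.00195 for CCD1, and with a pseudocount of 10 it was 0.38 for DYT1. Leaving out a library gave differences from -1.04 to 0.68 for PAL1, from -1.81 to 0.19 for CHI, from -1.81 to 0.25 for UGT78D2, from -0.018 to 0.20 for ZDS, from -0.58 to 0.86 for LUT5, from -0.0034 to 0.30 for AP3, from -0.10 to 0.17 for PI, from -2.72 to 2.28 for DYT1, from -0.11 to 0.60 for LAP6, from -1.30 to 0.19 for GPAT6, from -0.15 to 0.17 for ACO4 and from -7.55 to 0.11 for SWEET9. The cause was not tested. Depth limits loci of a few FPKM, where 1 read decides a value.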

Other observations

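Groups further from petal colour also held members past 2-fold. Among all tested loci 8.34% were at least 2-fold higher and 9.13% at least 2-fold lower in both Y libraries. Of the 13 lignin and sinapate genes 10 were tested, 4 were lower in both Y libraries and 0 higher, against 1 higher and 5 lower with Y library 1 alone and 0 higher and 7 lower with Y library 2 alone. They are C3H1, CCR1, CAD4 and REF1, and CAD4, an alcohol dehydrogenase of lignin, had 7.99 and 3.29 FPKM in Y and 24.5 and 21.2 FPKM in B, and CCR1, the reductase before it, 33.5 and 31.0 FPKM in Y and 69.4 and 80.7 FPKM in B. OMT1, a methyltransferase shared by lignin and flavonols, had 389.96 and 206 FPKM in Y and 773 and 745 FPKM in B. Of the ethylene genes, ACO4, an oxidase that releases ethylene, had 188 and 234 FPKM in Y and 220.4 and 196 FPKM in B, and the forms overlapped. SUS1, sucrose synthase, had 716 and 1049.9 FPKM in Y and 2469 and 2662 FPKM in B, and VAC-INV2, a vacuolar invertase, had 659.9 and 508 FPKM in Y and 249 and 249.9 FPKM in B. FMOGSOX3, which oxidises aliphatic glucosinolates, had 16.6 and 19.6 FPKM in Y and 3.74 and 3.77 FPKM in B. The metallothionein gene MT1C had 76.5 and 26.5 FPKM in Y, 547 and 437 FPKM in B and 117 and 514 FPKM in O.

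SWEET9, the sugar exporter of nectaries, was at 201 and 0 FPKM in Y, 170.4 and 201 FPKM in B and 343 and 0 FPKM in O, so Y library 2 and O library 2 listed it at 0. BSMT1, a methyltransferase of floral scent, had 2365 and 717 FPKM in Y, 2427 and 2587 FPKM in B and 2851 and 972 FPKM in O.

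In several further lists the member furthest from B is given as a value alone. CHLD, a subunit of the chelatase that starts chlorophyll synthesis, had 48.9 and 60.1 FPKM in Y and 16.9 and 28.1 FPKM in B, and both Y values were the higher ones. SGR2, a relative of the gene that opens chlorophyll for breakdown, had 0 and 17.0 FPKM in Y and 15.5 and 20.8 FPKM in B, where Y library 2 lay within B. The photosystem I subunit gene PSAK had 1.82 and 19.1 FPKM in Y and 0 and 0 FPKM in B. AGL6, a MADS gene of flower development, had 2.24 and 1.002 FPKM in Y and 0 and 0 FPKM in B. TCP4, which limits petal cell division, had 96.3 and 76.4 FPKM in Y and 39.9 and 40.6 FPKM in B. The pollen gene AGP11 had 1.82 and 3.20 FPKM in Y and 7.07 and 3.81 FPKM in B, and the lipid transfer protein gene LTPG2 had 3.45 and 3.03 FPKM in Y and 0 and 0 FPKM in B. Both Y values lay above both B values in PSAK, AGL6, TCP4 and LTPG2, and below them in AGP11. As these members were picked for their distance from B, that order is no separate result. PSAK, AGL6 and LTPG2 were at 0 in both B libraries. The water channel gene PIP2;2 had 0 and 15.1 FPKM in Y and 64.2 and 33.0 FPKM in B. BBX32, a repressor in light signalling, had 0 and 0 FPKM in Y and 7.37 and 0 FPKM in B. GGP1, a peptidase of glucosinolate synthesis, had 2.40 and 3.22 FPKM in Y and 7.78 and 12.5 FPKM in B, and NSP5, a nitrile-specifier protein, had 29.2 and 26.3 FPKM in Y and 9.70 and 17.37 FPKM in B. Both Y values lay below B in PIP2;2 and GGP1 and above it in NSP5. FPS2, the farnesyl diphosphate synthase of sterols, had 14.6 and 40.3 FPKM in Y and 7.09 and 9.52 FPKM in B. SEN1, a gene of ageing and darkened leaves, had 0 and 0 FPKM in Y and 7.52 and 3.03 FPKM in B, and C3H1, a hydroxylase of lignin, had 0 and 0.536 FPKM in Y and 3.05 and 6.14 FPKM in B.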
